A study of Mus musculus with 9 samples.

Results

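The 6 mouse Iroquois homeobox genes (Irx1 to Irx6) lie in a pair of clusters, and the open chromatin around them was followed here through 9 ATAC-seq peak lists. ATAC-seq marks accessible DNA by where a transposase inserts sequencing adapters, and a peak is a stretch with more insertions than its surroundings. The genes were taken by symbol from the annotation of genome build mm9, in which they are 6 of 22367 protein-coding genes. Irx1 (chr13:72095680-72101171, minus strand), Irx2 (chr13:72766245-72771644, plus strand) and Irx4 (chr13:73397945-73407068, plus strand) form one cluster. Irx3 (chr8:94322428-94325553, minus strand), Irx5 (chr8:94881695-94885351, plus strand) and Irx6 (chr8:95198188-95204855, plus strand) form the other. A locus is a gene body with 50 kb on each side, and a cluster is its 3 loci with the stretches between them, which gives 1411 kb on chromosome 13 and 982 kb on chromosome 8. Peaks were placed by their midpoint and called promoter peaks within 1 kb of any annotated start site and distal peaks otherwise. Peaks of the 9 lists that overlap were merged into regions, of which 95 of 73317 fell in the clusters, 48 on chromosome 13 and 47 on chromosome 8.

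Iroquois proteins are transcription factors of the TALE class, whose homeodomain carries an extended loop. In vertebrates they pattern the neural plate, limb and heart, with Irx4 known for its ventricular expression and Irx3 and Irx5 for conduction and repolarisation of the heart. The genes of a cluster are known to share enhancers, which lie far from the genes in long stretches that hold few other genes. Besides the Irx genes, the annotation places Rpl9-ps4 and Gm10263 in the chromosome 13 cluster, and D230002A01Rik, a U6 gene, 4933436C20Rik and Gm3272 in the chromosome 8 cluster.

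All embryos were of the Swiss Webster strain at E9.5 and carried the Rosa26-GFPflox/+ reporter, which labels cells that have expressed Cre and their progeny. Each of the 3 groups had 3 libraries of sorted GFP-positive cells from pooled embryos. Tbx1-Cre Ctrl embryos were Tbx1Cre;Rosa26-GFPflox/+, and since Cre sits in the Tbx1 gene these controls have 1 working Tbx1 allele. Tbx1-Cre cKO embryos were Tbx1Cre/flox;Rosa26-GFPflox/+, so that the remaining allele was inactivated in the cells that express Cre. Mesp1-Cre Ctrl embryos were Mesp1Cre;Rosa26-GFPflox/+ and carried no Tbx1 allele change by their label. Tbx1-Cre marks pharyngeal mesoderm, endoderm and ectoderm, and Mesp1-Cre marks mesoderm and its progeny. The tissue labels name pharyngeal apparatus and heart for Mesp1-Cre and add the back for both Tbx1-Cre groups, whereas the study's methods describe dissection without the heart. Lineage, dissection and the number of working Tbx1 alleles therefore cannot be told apart between Mesp1-Cre and Tbx1-Cre groups. The term lineage comparison below stands for Mesp1-Cre Ctrl against Tbx1-Cre Ctrl with all these differences. Both comparisons below, Tbx1-Cre cKO and Mesp1-Cre Ctrl each against Tbx1-Cre Ctrl, share the Tbx1-Cre Ctrl libraries.

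Of the 87 distal regions in the clusters, 84 had their centre between genes, 2 in introns of Irx4 and 1 in a coding exon of Irx6. The sequences on which the results turn are given first, as the central 300 bp of each region on the plus strand of mm9. The 5 shown first had a peak in all 3 Tbx1-Cre Ctrl libraries and in no Tbx1-Cre cKO library, and they are named by the nearest Irx gene and the distance from its start site. Capitals mark matches, on either strand, to 5 short motifs: GGTGTGA for T-box proteins, AGATAA for GATA factors, TGTTTAC for forkhead proteins, TAATTA for homeodomains and the palindrome ACANNTGT for Iroquois proteins. A match describes letters and is no evidence of binding.
Irx1 277 kb upstream, chr13:72377646-72377945: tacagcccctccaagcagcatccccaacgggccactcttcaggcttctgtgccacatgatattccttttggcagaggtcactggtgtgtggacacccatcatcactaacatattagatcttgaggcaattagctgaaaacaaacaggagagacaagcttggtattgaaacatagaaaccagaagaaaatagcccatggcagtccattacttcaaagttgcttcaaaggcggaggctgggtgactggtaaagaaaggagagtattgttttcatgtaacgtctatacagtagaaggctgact
Irx4 50.3 kb downstream, chr13:73448066-73448365: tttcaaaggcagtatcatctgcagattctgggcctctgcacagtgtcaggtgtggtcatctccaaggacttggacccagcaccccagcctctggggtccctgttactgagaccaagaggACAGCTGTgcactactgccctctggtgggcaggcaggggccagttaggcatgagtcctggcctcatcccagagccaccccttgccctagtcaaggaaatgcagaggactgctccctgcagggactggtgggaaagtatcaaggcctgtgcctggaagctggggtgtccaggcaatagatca
Irx5 220.1 kb upstream, chr8:94661409-94661708: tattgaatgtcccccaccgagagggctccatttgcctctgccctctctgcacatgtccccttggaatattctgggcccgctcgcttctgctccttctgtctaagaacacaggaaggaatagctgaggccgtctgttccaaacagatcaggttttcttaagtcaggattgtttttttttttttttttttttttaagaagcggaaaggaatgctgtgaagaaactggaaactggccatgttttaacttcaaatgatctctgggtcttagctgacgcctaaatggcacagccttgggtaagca
Irx5 141 kb upstream, chr8:94740306-94740605: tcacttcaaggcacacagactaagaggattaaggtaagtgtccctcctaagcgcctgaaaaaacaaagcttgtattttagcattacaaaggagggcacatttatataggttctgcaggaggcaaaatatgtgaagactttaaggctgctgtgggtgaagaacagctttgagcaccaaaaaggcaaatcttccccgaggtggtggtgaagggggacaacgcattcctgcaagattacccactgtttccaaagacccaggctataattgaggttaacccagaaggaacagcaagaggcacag
Irx5 45.4 kb upstream, chr8:94836128-94836427: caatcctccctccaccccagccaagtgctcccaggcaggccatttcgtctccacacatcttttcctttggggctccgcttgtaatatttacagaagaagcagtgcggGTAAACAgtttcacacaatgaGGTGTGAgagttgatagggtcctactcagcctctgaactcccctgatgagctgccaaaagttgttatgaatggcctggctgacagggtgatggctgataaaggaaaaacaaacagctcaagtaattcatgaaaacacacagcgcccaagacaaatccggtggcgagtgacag

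Irx5 45.4 kb upstream was the only one of these 5 windows with a T-box match (from base 129), and it also held a forkhead match on the other strand (from base 108). T-box proteins, among them TBX1, bind sites of the GGTGTGA kind. Irx4 50.3 kb downstream held a single Iroquois match from base 120, and the other 3 windows held no match to the 5 motifs. Beside them stand 1 region with a peak in all Tbx1-Cre Ctrl libraries and no Mesp1-Cre library (Irx5 243 kb upstream), 1 region of each cluster that was called in all 9 libraries, and the 250 bases before the Irx4 start site, which no library had within a peak. The 3 regions held no match, and the Irx4 window was not searched for motifs.
Irx5 243 kb upstream, chr8:94638451-94638750: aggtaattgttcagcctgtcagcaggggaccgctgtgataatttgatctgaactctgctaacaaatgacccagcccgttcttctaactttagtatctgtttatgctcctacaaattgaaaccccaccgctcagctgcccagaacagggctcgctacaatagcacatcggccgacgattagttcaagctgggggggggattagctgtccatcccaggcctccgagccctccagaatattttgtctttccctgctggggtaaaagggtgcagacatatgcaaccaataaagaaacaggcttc
Irx1 171 kb upstream, chr13:72271660-72271959: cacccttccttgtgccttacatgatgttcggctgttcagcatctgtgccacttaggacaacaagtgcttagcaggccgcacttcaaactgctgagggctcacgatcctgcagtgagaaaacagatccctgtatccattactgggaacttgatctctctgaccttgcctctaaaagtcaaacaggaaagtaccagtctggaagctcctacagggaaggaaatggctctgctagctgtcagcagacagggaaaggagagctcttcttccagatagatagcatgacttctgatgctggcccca
Irx3 17.4 kb upstream, chr8:94342829-94343128: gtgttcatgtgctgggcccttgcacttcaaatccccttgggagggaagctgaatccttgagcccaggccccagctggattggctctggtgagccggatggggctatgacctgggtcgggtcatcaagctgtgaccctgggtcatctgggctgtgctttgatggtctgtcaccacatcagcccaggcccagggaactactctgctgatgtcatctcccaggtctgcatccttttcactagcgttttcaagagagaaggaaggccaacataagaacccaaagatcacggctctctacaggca
Irx4 upstream window, chr13:73397695-73397944: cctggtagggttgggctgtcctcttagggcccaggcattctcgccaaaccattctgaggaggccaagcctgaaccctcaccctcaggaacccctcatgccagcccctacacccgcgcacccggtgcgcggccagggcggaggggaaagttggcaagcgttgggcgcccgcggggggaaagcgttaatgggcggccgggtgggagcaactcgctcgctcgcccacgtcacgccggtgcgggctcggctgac

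The peak lists differed in length. They held 43298 to 49490 peaks in Tbx1-Cre Ctrl, 19772 to 29251 in Tbx1-Cre cKO and 25483 to 42648 in Mesp1-Cre Ctrl. Most of the difference lay in distal peaks, of which Tbx1-Cre Ctrl lists had 27667 to 32190, Tbx1-Cre cKO lists 7317 to 14824 and Mesp1-Cre lists 11980 to 26509. Promoter peaks ranged from 15631 to 17300, 12455 to 14427 and 13503 to 16139 in the same order. The lists give intervals with no score or read count, so the depth behind each list is unknown, and a missing peak says only that none was called. Each count below is therefore also given per 10000 distal peaks of its library where the list length changes the picture. The Tbx1 gene, inactivated in the Tbx1-Cre cKO cells, had no peak within 10 kb in any Tbx1-Cre cKO list and had peaks in both control groups. How many other genes showed this pattern was not counted.

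A promoter region within 1 kb of the start site was called in nearly every library at 5 of the 6 Irx genes, and Irx4 stood apart. At Irx1 the region over the start site (chr13:72100823-72101851) was called in all 9 libraries. It covered 763, 778 and 792 bp in Tbx1-Cre Ctrl replicates 1 to 3, 479, 497 and 528 bp in Tbx1-Cre cKO and 610, 267 and 465 bp in Mesp1-Cre Ctrl, so both groups lay below every Tbx1-Cre Ctrl library. A separate peak inside the Irx1 intron (chr13:72100336-72100766) was called only in Tbx1-Cre Ctrl replicates 1 and 3. Irx2, at its start site (chr13:72765673-72766935), had 1054, 1039 and 1232 bp in Tbx1-Cre Ctrl, 975, 780 and 698 bp in Tbx1-Cre cKO and 1050, 682 and 833 bp in Mesp1-Cre Ctrl. Here the Tbx1-Cre cKO libraries were narrower than every Tbx1-Cre Ctrl library, and the Mesp1-Cre libraries overlapped both Tbx1-Cre groups.

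Irx4, the ventricular member, had a promoter peak in 1 of 9 libraries, a 249 bp peak in Tbx1-Cre Ctrl replicate 2 (chr13:73397990-73398238, in the UTR exon that begins the gene). The 300 bp window around its start site, from 250 bases before to 50 after, was 70.7% G and C, above 90.0% of protein-coding genes, within the range of the other members. The same windows were 74.7% G and C at Irx1, 68.7% at Irx2, 56.0% at Irx3, 71.0% at Irx5 and 65.7% at Irx6, beside a median of 55.0% over 22362 genes.

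On chromosome 8, Irx3 showed how a count of peaks can go against the length they cover. Its start site region (chr8:94325148-94326374, which also lies in an intron of D230002A01Rik) held 1 peak in each Tbx1-Cre Ctrl library, 2 in each Tbx1-Cre cKO library and 1, 2 and 2 in Mesp1-Cre Ctrl. The covered length was 1110, 1110 and 1114 bp in Tbx1-Cre Ctrl, 921, 847 and 594 bp in Tbx1-Cre cKO and 862, 910 and 802 bp in Mesp1-Cre Ctrl. The Tbx1-Cre Ctrl libraries thus carried 1 wide peak where the other groups carried a narrower total that was split in all but 1 library.

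Irx5 had 2 promoter peaks in all 9 libraries, one at its own start site and one at that of the divergent neighbour 4933436C20Rik. The Irx5 region (chr8:94881183-94882109) covered 848, 669 and 868 bp in Tbx1-Cre Ctrl, 610, 542 and 351 bp in Tbx1-Cre cKO and 683, 290 and 298 bp in Mesp1-Cre Ctrl. The neighbour's region covered 907, 870 and 780 bp, 718, 835 and 682 bp, and 767, 719 and 759 bp in the same order, and was the promoter region of the clusters with the smallest loss of length in both comparisons. Irx6 had its promoter region 595 bp upstream of the start site (chr8:95197048-95198127), with 829, 835 and 1080 bp in Tbx1-Cre Ctrl and 655, 551 and 613 bp in Mesp1-Cre Ctrl. In Tbx1-Cre cKO it covered 477 and 412 bp in replicates 1 and 3 and had no peak in replicate 2. Of the 5 members with a recurrent promoter peak, Irx6 was the one that a library lacked.

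Across the clusters, 5 of 8 promoter regions (62.5%) were called in all 9 libraries, beside 56.4% of 18443 promoter regions in the genome. Covered length was below every Tbx1-Cre Ctrl library in all Tbx1-Cre cKO libraries at 4 of these 5 (41.4% of 10408 such promoter regions did the same) and in all Mesp1-Cre libraries at 3 of 5 (background 19.1%). The median over the 5 was 70.8% of the Tbx1-Cre Ctrl mean in Tbx1-Cre cKO, with a range of 63.0% to 87.4%, and 77.1% in Mesp1-Cre Ctrl, with a range of 53.3% to 87.8%. Over all 10408 promoter regions the medians were 79.9% and 89.1%. Where the groups did not overlap the exact two-sided permutation p was 0.1, the smallest that 3 against 3 libraries allow.

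**Figure D1:**
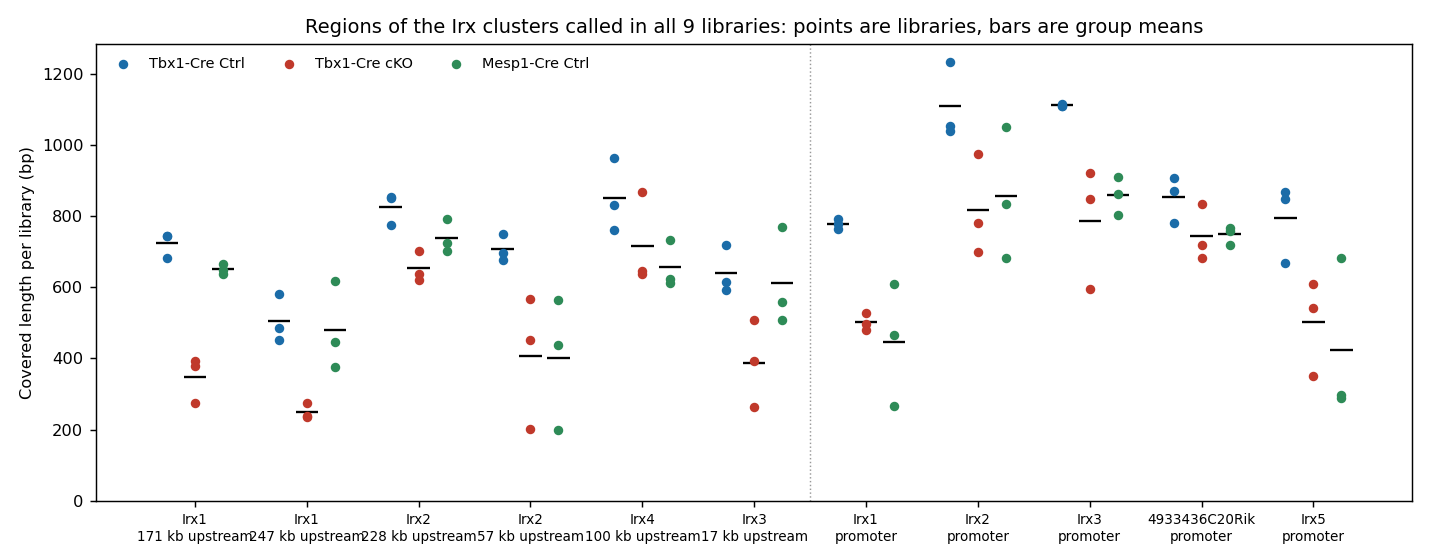
Covered length in bp (y axis) of the 6 distal and 5 promoter regions of the Irx clusters that were called in all 9 libraries (x axis), with 1 point per library and a bar at each group mean. At the 2 regions 171 and 247 kb upstream of Irx1 the Tbx1-Cre cKO points lie between 235 and 393 bp, below every point of the other groups at the same region. No share over the genome was counted for this.

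Distal peaks within the loci were few, and no member passed a test. Irx1 had 2, 1 and 2 distal peaks in Tbx1-Cre Ctrl, none in any Tbx1-Cre cKO library and 2, 2 and 0 in Mesp1-Cre Ctrl. Irx5 had the same counts in the Tbx1-Cre groups, 2, 1 and 2 against none, and 1, 0 and 0 in Mesp1-Cre Ctrl. At these 2 of 6 genes every Tbx1-Cre cKO library lay below every Tbx1-Cre Ctrl library, which 26.0% of 17949 protein-coding genes with a distal peak in either group did as well. Per 10000 distal peaks the same 2 genes lay below, beside a background of 7.77%. Their Tbx1-Cre cKO counts were all 0, which no scaling changes, so this does not account for list length at these genes. The exact two-sided permutation p was 0.1 for both, and the Benjamini-Hochberg adjusted p over those 17949 genes was 0.383. With a flank of 20 kb in place of 50 kb neither gene lay below, and the differences in means were -0.667 peaks at Irx1 and -0.333 at Irx5 against -1.67 at both (exact permutation p = 1.0 for each).

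Irx6 was the counterpart in the lineage comparison. It had 1, 1 and 3 distal peaks in Tbx1-Cre Ctrl, none in any Mesp1-Cre library, and 2, 0 and 0 in Tbx1-Cre cKO. It was the 1 member of 6 at which every Mesp1-Cre library lay below every Tbx1-Cre Ctrl library, on the raw scale (background 11.1% of 18378 genes) and per 10000 distal peaks (background 6.07%). The scaled result follows from Mesp1-Cre counts of 0, which no scaling changes. The exact permutation p of Irx6 was 0.1 and its adjusted p over all those genes 0.867. At Irx4 the control groups had equal counts, 4, 1 and 2 distal peaks in both Tbx1-Cre Ctrl and Mesp1-Cre Ctrl, with 1, 1 and 0 in Tbx1-Cre cKO (exact permutation p = 0.3 for Tbx1-Cre cKO against Tbx1-Cre Ctrl).

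Irx2 and Irx3 had overlapping counts in all groups. Irx2 had 3, 2 and 1 distal peaks in Tbx1-Cre Ctrl, 2, 1 and 0 in Tbx1-Cre cKO and 1, 1 and 0 in Mesp1-Cre Ctrl. Irx3 had 3, 2 and 1 in Tbx1-Cre Ctrl and exactly 1 in each of the other 6 libraries, which was the region 17.4 kb upstream of its start site every time. In Tbx1-Cre Ctrl the mean distal count of the members ran from 1.67 at Irx1, Irx5 and Irx6 through 2.00 at Irx2 and Irx3 to 2.33 at Irx4, which are not separable given SDs of 0.577 to 1.53 (n = 3), and lay near the middle of all genes, whose median was 1.33. The scale matters for the wider reading of these counts. In raw peaks, 90.7% of tested genes had a lower mean in Tbx1-Cre cKO and 3.06% a higher one, and per 10000 distal peaks 51.3% were lower and 48.7% higher. For Mesp1-Cre the shares were 73.2% and 14.6% in raw peaks, and 47.6% and 52.4% per 10000.

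The stretches between the genes held most of the distal peaks and no promoter peak in any library. Between Irx1 and Irx2 (565 kb) there were 16, 12 and 12 distal peaks in Tbx1-Cre Ctrl, 5, 7 and 5 in Tbx1-Cre cKO and 8, 7 and 9 in Mesp1-Cre Ctrl. Between Irx2 and Irx4 (526 kb), a stretch of nearly equal length, there were 4, 4 and 5, then 1 in each Tbx1-Cre cKO library, and 4, 2 and 2 in Mesp1-Cre Ctrl. The distal peaks of this cluster were thus gathered on the Irx1 side, and its longest stretch with no peak in any of the 9 libraries (chr13:72953973-73129978, 176 kb) lay between Irx2 and Irx4. Per 10000 distal peaks the groups overlapped in both stretches. Between Irx1 and Irx2 the scaled values were 4.97, 4.34 and 3.86 in Tbx1-Cre Ctrl, 3.37, 6.84 and 6.83 in Tbx1-Cre cKO and 3.02, 5.84 and 5.66 in Mesp1-Cre Ctrl. Between Irx2 and Irx4 they were 1.24, 1.45 and 1.61, then 0.675, 0.977 and 1.37, and 1.51, 1.67 and 1.26.

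**Figure D2:**
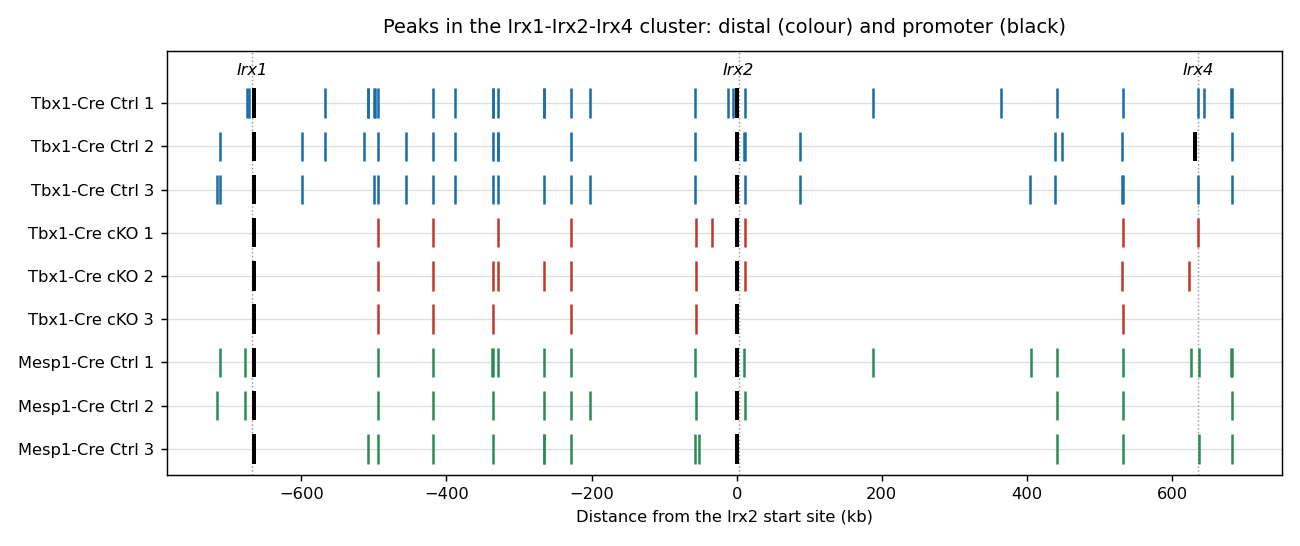
Peaks of the Irx1-Irx2-Irx4 cluster by library (rows) against distance in kb from the Irx2 start site (x axis), with distal peaks in the group colour, promoter peaks in black and gene midpoints as dotted lines. Columns of ticks through all 9 rows mark the 5 distal regions called in every library.

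On chromosome 8 the stretch between Irx3 and Irx5 (456 kb) held 22, 6 and 8 distal peaks in Tbx1-Cre Ctrl, 3, 2 and 0 in Tbx1-Cre cKO and 6, 4 and 2 in Mesp1-Cre Ctrl. Tbx1-Cre Ctrl replicate 1 stood far above the other controls here. Between Irx5 and Irx6 (213 kb) there were 7, 4 and 4, then 3, 0 and 1, and 1, 0 and 1. In the latter stretch the Mesp1-Cre libraries also lay below every Tbx1-Cre Ctrl library per 10000 distal peaks (0.377, 0 and 0.629 against 2.17, 1.45 and 1.29), while the Tbx1-Cre cKO libraries overlapped them (2.02, 0 and 1.37). In the other stretches of both clusters the Mesp1-Cre libraries overlapped the controls on that scale. No background was formed for stretches of this length. Of 1518 tiles of 1 Mb, a longer window, 7.51% had every Mesp1-Cre library below every Tbx1-Cre Ctrl library per 10000.

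**Figure D3:**
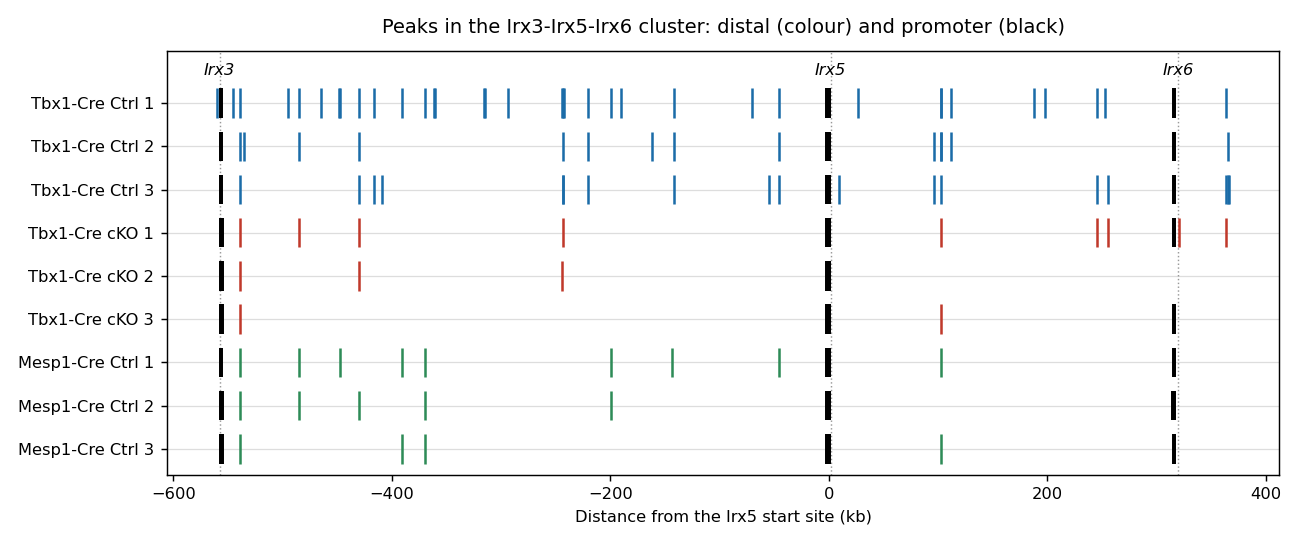
Peaks of the Irx3-Irx5-Irx6 cluster by library (rows) against distance in kb from the Irx5 start site (x axis), with distal peaks in the group colour, promoter peaks in black and gene midpoints as dotted lines. The promoter columns run through the rows of all groups, while 1 distal column, 17.4 kb upstream of Irx3, is present in every row.

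Taken as whole clusters, chromosome 13 followed the length of the lists. Chromosome 8 held fewer distal peaks than list length gives in Mesp1-Cre Ctrl, whereas Tbx1-Cre cKO replicate 1 overlapped the controls per 10000 distal peaks. The chromosome 13 cluster had 29, 20 and 22 distal peaks in Tbx1-Cre Ctrl, 9, 10 and 6 in Tbx1-Cre cKO and 19, 13 and 13 in Mesp1-Cre Ctrl. Per 10000 distal peaks these became 9.01, 7.23 and 7.08, then 6.07, 9.77 and 8.20, and 7.17, 10.9 and 8.18, and all 3 groups overlapped. Its mean fell to 35.2% of the Tbx1-Cre Ctrl mean in Tbx1-Cre cKO and to 63.4% in Mesp1-Cre Ctrl, beside 35.6% and 59.8% for all distal peaks of the lists.

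The chromosome 8 cluster had 35, 14 and 18 distal peaks in Tbx1-Cre Ctrl, 9, 3 and 2 in Tbx1-Cre cKO and 9, 5 and 4 in Mesp1-Cre Ctrl. Per 10000 distal peaks the values were 10.9, 5.06 and 5.80 in Tbx1-Cre Ctrl, 6.07, 2.93 and 2.73 in Tbx1-Cre cKO and 3.40, 4.17 and 2.52 in Mesp1-Cre Ctrl. On this scale every Mesp1-Cre library lay below every Tbx1-Cre Ctrl library, as did 7.51% of 1518 tiles of 1 Mb, and Tbx1-Cre cKO replicate 1 overlapped the controls, with a background of 8.37% of tiles for that comparison. In raw counts both groups lay below, which 83.9% of tiles did for Tbx1-Cre cKO and 25.8% for Mesp1-Cre.

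The mean of the chromosome 8 cluster was 20.9% of the Tbx1-Cre Ctrl mean in Tbx1-Cre cKO and 26.9% in Mesp1-Cre Ctrl. Over the 1518 tiles the medians were 35.3% and 59.4%, and 9.42% and 1.12% of tiles had a lower value than the cluster. These figures lean on Tbx1-Cre Ctrl replicate 1. Without it the cluster was at 29.2% in Tbx1-Cre cKO, with 26.8% of tiles lower, and at 37.5% in Mesp1-Cre Ctrl, with 6.79% of tiles lower. The share of the distal peaks of both clusters that fell on chromosome 8, which is formed within each library, was 54.7%, 41.2% and 45.0% in Tbx1-Cre Ctrl, 50%, 23.1% and 25.0% in Tbx1-Cre cKO and 32.1%, 27.8% and 23.5% in Mesp1-Cre Ctrl. The Mesp1-Cre libraries were all below the controls in this share, and Tbx1-Cre cKO replicate 1 was not. No p is given for these totals.

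**Figure D4:**
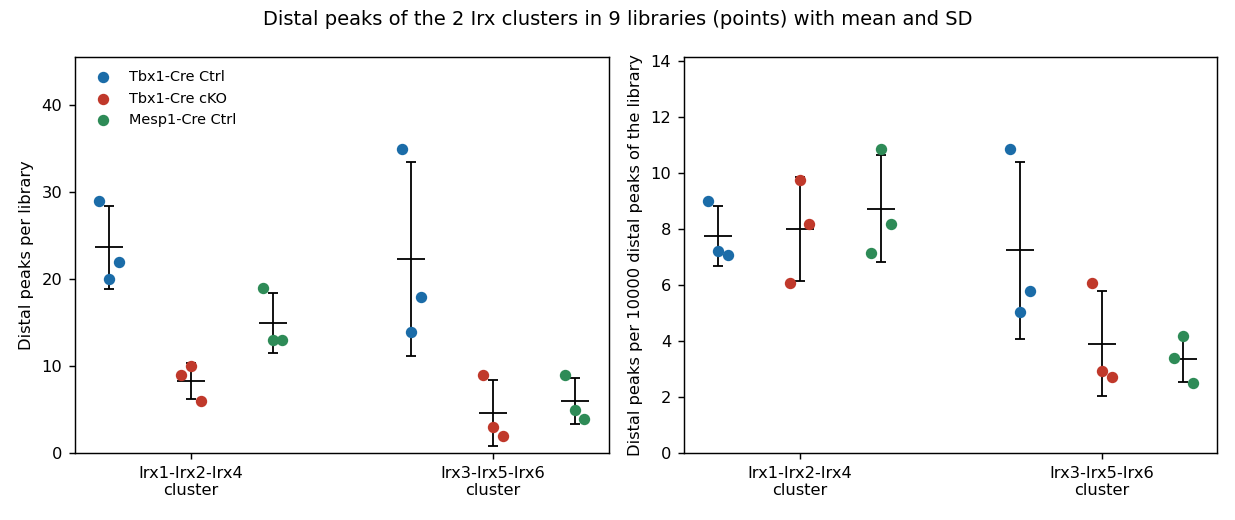
Distal peaks of each cluster per library, as counts (left) and per 10000 distal peaks of the library (right), with 1 point per library and the group mean and SD (n = 3) in black. On the right the groups overlap in the Irx1-Irx2-Irx4 cluster, while the 3 Mesp1-Cre points of the Irx3-Irx5-Irx6 cluster, at 2.52 to 4.17, sit below the 3 Tbx1-Cre Ctrl points.

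Single regions, which are built from the same peaks as these totals, also differed between the clusters. In the chromosome 13 cluster 10 distal regions were called in all 3 Tbx1-Cre Ctrl libraries, of which 7 were also called in all Mesp1-Cre libraries and 5 in all Tbx1-Cre cKO libraries. In the chromosome 8 cluster there were 7 such regions, of which 1 was called in all Mesp1-Cre libraries and that same 1 in all Tbx1-Cre cKO libraries. Over the genome 15626 distal regions were called in all 3 Tbx1-Cre Ctrl libraries, and 37.9% of them were called in all Mesp1-Cre and 27.2% in all Tbx1-Cre cKO libraries. The chromosome 13 shares, 70% and 50% in the same order, lay above these, and those of chromosome 8, 14.3% for each group, lay below them. The numbers of regions in the clusters are small, and no test was run on them.

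The 5 regions with a peak in all Tbx1-Cre Ctrl and no Tbx1-Cre cKO library were 5.75% of the 87 distal regions, beside 7.95% of 54874 in the genome. Irx1 277 kb upstream covered 376, 311 and 448 bp in Tbx1-Cre Ctrl and had no peak in Mesp1-Cre libraries either, the nearest lying 29531 bp away. Irx4 50.3 kb downstream covered 750, 602 and 547 bp in Tbx1-Cre Ctrl and 509, 375 and 205 bp in Mesp1-Cre Ctrl, and the nearest Tbx1-Cre cKO peak was 17076 bp away. It was the only 1 of the 5 that every Mesp1-Cre library also had.

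The other 3 lay between Irx3 and Irx5 or within the Irx5 locus. Irx5 220.1 kb upstream covered 606, 530 and 647 bp in Tbx1-Cre Ctrl and was the widest of the 3, with no peak of either other group within 20 kb. Irx5 141 kb upstream covered 430, 282 and 485 bp, with the nearest Tbx1-Cre cKO peak 101036 bp away and a Mesp1-Cre peak 1329 bp away. Irx5 45.4 kb upstream, the window with the T-box match, covered 612, 289 and 484 bp in Tbx1-Cre Ctrl and 457 bp in Mesp1-Cre Ctrl replicate 1.

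In the lineage comparison 4 of 87 distal regions (4.60%) had a peak in all Tbx1-Cre Ctrl and no Mesp1-Cre library, beside 6.96% in the genome. Besides Irx1 277 kb upstream, Irx5 220.1 kb upstream and Irx5 141 kb upstream these included Irx5 243 kb upstream, at 899, 807 and 769 bp in Tbx1-Cre Ctrl the widest region of this class, with 547 bp in Tbx1-Cre cKO replicate 1 and no peak in the other cKO libraries. No region in the clusters had a peak in all Tbx1-Cre cKO and no Tbx1-Cre Ctrl library (background 0.0128%) or in all Mesp1-Cre and no Tbx1-Cre Ctrl library (background 0.933%). These class sizes changed when a control was left out, where a region needs a peak in fewer libraries and the rule is easier to meet. Without Tbx1-Cre Ctrl replicate 1 they were 12 distal regions against Tbx1-Cre cKO, 10 in the lineage comparison and 2 for Mesp1-Cre alone. Without replicate 2 they were 8, 9 and 0, and without replicate 3 they were 7, 6 and 0. No share over the genome was counted under these looser rules.

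Of the 87 distal regions, 6 were called in all 9 libraries, 5 of them on chromosome 13, beside a background of 5.90%. Irx1 171 kb upstream (chr13:72271384-72272152) covered 745, 745 and 681 bp in Tbx1-Cre Ctrl, 378, 393 and 276 bp in Tbx1-Cre cKO and 638, 665 and 648 bp in Mesp1-Cre Ctrl. The peaks of the cKO libraries were on average 48.2% as wide as those of Tbx1-Cre Ctrl. The region 247 kb upstream of Irx1 (chr13:72347419-72348074) showed the same order, with 582, 486 and 451 bp, 237, 235 and 276 bp, and 447, 377 and 617 bp. In both, every Tbx1-Cre cKO library lay below all 6 libraries of the other groups, for which no share over the genome was counted. Below every Tbx1-Cre Ctrl library alone lay 52.2% of 3237 such regions in the genome.

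The region 228 kb upstream of Irx2 (chr13:72537854-72538743) changed less, from 776, 850 and 853 bp in Tbx1-Cre Ctrl to 621, 701 and 636 bp in Tbx1-Cre cKO. The region 56.7 kb upstream of Irx2 (chr13:72709155-72709910) had 749, 676 and 697 bp in Tbx1-Cre Ctrl, and both other groups spread widely below it, with 452, 568 and 201 bp in Tbx1-Cre cKO and 563, 439 and 200 bp in Mesp1-Cre Ctrl. At 100.1 kb upstream of Irx4 (chr13:73297163-73298280) the values were 760, 831 and 962 bp, 646, 867 and 636 bp, and 624, 732 and 613 bp. Here alone among the 6 the Tbx1-Cre cKO libraries overlapped the Tbx1-Cre Ctrl libraries. Irx3 17.4 kb upstream, the only such region on chromosome 8, covered 718, 614 and 591 bp in Tbx1-Cre Ctrl, 263, 507 and 394 bp in Tbx1-Cre cKO and 768, 508 and 558 bp in Mesp1-Cre Ctrl.

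In all, 5 of the 6 shared distal regions were narrower in every Tbx1-Cre cKO library than in every Tbx1-Cre Ctrl library, beside 52.2% of 3237 such regions in the genome, and 3 of 6 were so in Mesp1-Cre Ctrl, beside 31.2%. Their median covered length was 59.0% of the control in Tbx1-Cre cKO (48.2% to 84.2%) and 89.6% in Mesp1-Cre Ctrl (56.6% to 95.4%). Over the 3237 regions the medians were 70.1% and 83.2%.

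Motif matches were counted in the central 300 bp of the 87 distal regions and of 54869 distal regions in the genome. The T-box letters GGTGTGA were in 5 of 87, 4 on chromosome 8 and 1 on chromosome 13, beside 4.23% of the genome's regions. Iroquois sites were in 14 of 87 (16.1%), 7 in each cluster, beside 11.1%. GATA letters were in 11 (background 15.3%), forkhead letters in 3 (5.42%) and homeodomain letters in 4 (6.69%). E-boxes (CANNTG), which overlap the Iroquois palindrome, were in 77 (88.5%), beside 81.5%. Among the regions described above, Irx2 228 kb upstream held a homeodomain match and Irx2 56.7 kb upstream held 2 GATA matches. Median G and C content was 51.3% in the clusters and 49.7% over all distal regions. These shares are descriptions, and the neighbouring regions of a cluster are not independent.

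For context, the other TALE genes and a set of heart genes that act with or under Irx factors were counted in the same way. Of 12 other TALE genes, 4 had every Tbx1-Cre cKO library below every Tbx1-Cre Ctrl library in raw distal peaks, beside 26.0% of all genes tested, among them Meis2, which encodes a cofactor of Hox proteins (17, 12 and 14 against 8, 8 and 3), and the repressor gene Tgif1 (5, 4 and 5 against 2 in each library). The same 4 lay below in Mesp1-Cre Ctrl, beside 11.1% of all genes tested. Per 10000 distal peaks none lay below in either comparison, whereas 2 (Pbx3 and Pknox2) lay above in Tbx1-Cre cKO and 1 (Meis3) in Mesp1-Cre Ctrl, beside 15.1% and 12.4% of all genes tested. The median difference from Tbx1-Cre Ctrl was -1.33 peaks for the TALE genes and -1.33 for the Irx genes in Tbx1-Cre cKO, beside -1.0 over all genes, and -1.0 and -1.17 in Mesp1-Cre Ctrl, beside -0.667.

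Of 6 heart genes (Gja1, Gja5, Kcnd2, Nkx2-5, Tbx5 and Hand1), none lay below in raw peaks in either comparison. Gja5, which encodes a connexin of the conduction system and whose regulation by Irx3 is known, had 4, 2 and 3 distal peaks in Tbx1-Cre Ctrl, 2, 1 and 2 in Tbx1-Cre cKO and 8, 5 and 4 in Mesp1-Cre Ctrl. Per 10000 distal peaks it lay above in Mesp1-Cre Ctrl, and Gja1 lay above in Tbx1-Cre cKO, each the only 1 of the 6 to do so, beside the same 12.4% and 15.1% of all genes.

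Peaks at markers of the cell types that the sort could hold were also counted, within 10 kb of each gene. The whole lists held 46600 peaks on average in Tbx1-Cre Ctrl, 24355 in Tbx1-Cre cKO and 32888 in Mesp1-Cre Ctrl. For 7 markers of cardiopharyngeal mesoderm the summed peaks were 22 to 25 in Tbx1-Cre Ctrl, 11 to 14 in Tbx1-Cre cKO (Tbx1 at 0) and 15 to 25 in Mesp1-Cre Ctrl. For 5 pharyngeal endoderm markers they were 8 to 13, 2 to 4 (Nkx2-1 and Epcam at 0) and 2 to 9, and for 5 markers of surface and otic ectoderm 10 to 15, 2 to 7 (Pax2 at 0) and 3 to 9. Per 10000 peaks, mesoderm markers overlapped between Tbx1-Cre Ctrl (4.68 to 5.54) and Tbx1-Cre cKO (4.58 to 6.07), as did ectoderm markers (2.31 to 3.03 and 0.832 to 2.39), while endoderm markers did not (1.85 to 2.77 and 0.832 to 1.37). In Mesp1-Cre Ctrl the mesoderm, ectoderm and endoderm values were 5.63 to 8.19, 1.18 to 2.95 and 0.785 to 2.11. How many other gene sets would show no overlap was not counted. This scale uses all peaks, of which on average 65.0% were distal in Tbx1-Cre Ctrl and 43.4% in Tbx1-Cre cKO. For 2 neural crest markers the sums were 1 to 3, 0 to 1 and 0 to 1 (Foxd3 at 0 in Mesp1-Cre Ctrl), and for 3 blood and endothelial markers 5 to 6, 3 to 4 and 4 to 6, with Gata1 at 0 throughout. In a sorted bulk sample, fewer cells of a type and less accessible DNA per cell cannot be told apart, and the part of these markers in the counts at the Irx clusters was not tested.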

How the data were processed

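ATAC-seq was done on sorted GFP-positive cells from pooled E9.5 embryos, with 3 libraries in each of 3 groups. Per the labels and the study's methods, the authors aligned reads to mm9 with Bowtie2 2.3.4.3, kept uniquely mapped pairs, called peaks per library with MACS2 and deposited interval lists without scores, p-values or counts. Those intervals, whose unit is genome position, are the only deposited values used. Starts were read as counted from 1, since the narrowest peak is then 200 bp, the extension that the methods give for the caller. Peaks on the mitochondrial genome were left out. Groups came from the titles and genotypes.

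Gene models came from GENCODE for mm9, and sequences were read from the mm9 genome by coordinates. Promoter peaks have their midpoint within 1 kb of any annotated start site. Merged regions join peaks that overlap by 1 bp or touch. The members and gene lists were chosen with earlier results of these data known. The genes named are the 6 members and some of the listed TALE and heart genes (the values of 1 listed gene are not reported here), and the regions named are those called in all 9 libraries or present in every library of one group and absent from another. Where a region outside this rule is named it was chosen after its values were seen. Gene loci were compared by exact two-sided permutation of 3 against 3 libraries (20 relabellings, smallest p 0.1), with Benjamini-Hochberg adjustment over all protein-coding genes that had a distal peak. That p is the share of relabellings whose difference in means was at least as large as the one observed. Tiles of 1 Mb with at least 8.38 distal peaks in the mean of the Tbx1-Cre Ctrl libraries, a limit set from the density of the sparser cluster, served as the background for cluster totals. Counting, merging and permutation were tested on simulated peak lists (Python 3.11.15, numpy 2.4.6, pandas 2.3.3). Depth is not given by the lists, so no counting interval could be formed. Alternatives were the flank, the promoter distance, overlap in place of midpoints, the widest peaks, scaling, the replicate block and each library left out.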

Additional observations from a re-analysis of the deposited data

How the results depend on the processing

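With 3 libraries a group no locus can pass a threshold under any setting, and the cluster totals have no test. Scaling to 10000 peaks of the class reversed Irx2 (0.116) and Irx3 (0.347) against Tbx1-Cre cKO and Irx1 (0.266) against Mesp1-Cre, took Irx4 against Mesp1-Cre from 0 to 0.451, and moved the chromosome 13 distal difference to 0.238 and 0.960. With the widest 19772 peaks of each list, the distal differences were 0.333 and 0.667 peaks for chromosome 13 and -1.67 and -1.33 for chromosome 8, in Tbx1-Cre cKO and Mesp1-Cre Ctrl. The promoter differences were then 0.333 for chromosome 13 in Tbx1-Cre cKO and 0 for both clusters in Mesp1-Cre Ctrl. Irx2 reversed to 0.667, and Irx1 and Irx4 in Tbx1-Cre cKO and Irx1 and Irx3 in Mesp1-Cre Ctrl went to 0. Region classes were then 0 (all Tbx1-Cre Ctrl, no Tbx1-Cre cKO), 1 (no Mesp1-Cre), 1 (Mesp1-Cre alone) and 7 (all 9 libraries, promoters included, 11 in the report). With the widest 75% of peaks the chromosome 13 distal difference in Tbx1-Cre cKO was -8.67, the promoter differences were -0.333 in both clusters, and 1 region was called for Mesp1-Cre alone. A 20 kb flank ended the separation of Irx1 (-0.667) and Irx5 (-0.333) in Tbx1-Cre cKO (exact permutation p = 1.0, 0.1 in the report), reversed Irx6 there (0.333) and left Irx1 and Irx6 at 0 in Mesp1-Cre Ctrl. A 100 kb flank gave larger differences, -4.0 and -3.67 at Irx5 in Tbx1-Cre cKO and Mesp1-Cre Ctrl and -3.0 at Irx4 in Tbx1-Cre cKO. It also took Irx1 and Irx2 in Mesp1-Cre Ctrl to -1.67, and the exact permutation p of Irx1, Irx2 and Irx5 in Mesp1-Cre Ctrl and of Irx4 in Tbx1-Cre cKO fell to 0.1. The cause of these changes was not tested. A promoter distance of 2 kb, any overlap and peaks cut to 200 bp reversed no value.

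Leaving out 1 library gave, promoter regions included, 5 to 12 regions called in all Tbx1-Cre Ctrl and no Tbx1-Cre cKO library, 4 to 10 with no Mesp1-Cre library and 0 to 2 for Mesp1-Cre alone. A rule over fewer libraries is easier to meet, and its share over the genome was not counted. The Irx1 difference for Mesp1-Cre ran from -0.667 to 0.333 and changed sign without Mesp1-Cre Ctrl replicate 3, and that of Irx4, 0 in the report, ran from -0.833 to 0.833. Deviations of same-numbered libraries correlated at -0.00393 to 0.0292 over regions, and those of differently numbered libraries at -0.0248 to 0.0163. These values show no clear pairing by replicate number and cannot settle whether libraries shared a batch. A replicate block gave the same differences (Irx1 and Irx5 -1.67 in Tbx1-Cre cKO, sign-flip p = 0.25 by exact permutation, the smallest for 3 pairs). Unscored lists and unknown depth limit these results, since the size of a signal cannot be compared between libraries.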

Other observations

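The regions below fall outside the classes of the report and were chosen after their values were seen. A region 190.2 kb upstream of Irx4 (chr13:73207301-73208143) was called in all Mesp1-Cre libraries, at 843, 452 and 681 bp, in Tbx1-Cre Ctrl replicate 1 at 585 bp and in no Tbx1-Cre cKO library. A second one, 187 kb upstream of Irx3 (chr8:94511913-94512305), had the same pattern at 341, 321 and 235 bp in Mesp1-Cre Ctrl and 239 bp in Tbx1-Cre Ctrl replicate 1. They are the 2 regions that make up the class of Mesp1-Cre alone when that control is left out. In the opposite direction, a region 49.5 kb downstream of Irx6 (chr8:95247098-95248338) covered 1077 and 878 bp in Tbx1-Cre Ctrl replicates 2 and 3 and had no peak in replicate 1 or in the Mesp1-Cre and Tbx1-Cre cKO lists, although a Tbx1-Cre cKO peak lay 1201 bp away.

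Tbx1-Cre Ctrl replicate 1 differed from the other controls on chromosome 8. Of its 33 distal regions in the Irx3-Irx5-Irx6 cluster, 16 (48.5%) were called in that library alone, beside 19.7% of its distal regions in the genome and 30.8% in the Irx1-Irx2-Irx4 cluster. Per 10000 distal peaks it held 2.00 times the mean of replicates 2 and 3 in that cluster, where 6.98% of 1518 tiles of 1 Mb had a higher ratio and the median ratio was 1.04. The Fto gene body (chr8:93837431-94192338), which is known to carry enhancers of Irx3 and ends 80.1 kb before the Irx3 locus as defined here, had a ratio of 2.02. Fto had 22, 8 and 12 distal peaks in Tbx1-Cre Ctrl, 8, 5 and 3 in Tbx1-Cre cKO and 12, 7 and 8 in Mesp1-Cre Ctrl, so the Mesp1-Cre libraries overlapped the controls there. They did the same in the Irx3 locus and in the stretch between Irx3 and Irx5, but not between Irx5 and Irx6 or in the Irx6 locus.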
